A study of Mus musculus with 7 samples.

Results

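Potassium channel genes were described in the cerebellum of mice that lost the repressor gene Cic in the En1 lineage. Members were all gene symbols of the count files made of Kcn, a subfamily letter code, a number and at most 1 further letter, except Kcnj13 and Kcne2, which mark the choroid plexus, and antisense symbols ending in os. The rule gave 91 genes of the 24421 in the files, and 79 of them passed the filter on low counts. The CicKO group (n = 4) was En1-Cre; Cicflox/flox, and the group titled Wildtype (n = 3) was Cicflox/+ with no Cre named, both on C57BL/6 and with no age given. The En1 gene is active in the embryonic midbrain and hindbrain, and Cre under its control deletes floxed DNA in those cells and their descendants. With no Cre named for the controls, an effect of Cre cannot be told apart from the loss of Cic. The controls also carried 1 floxed Cic allele. The comparison asks which potassium channel transcripts differ in whole cerebellum when Cic is deleted.

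Potassium channels let potassium ions leave or enter cells along their gradient and thereby set the resting potential, shape the action potential and limit repetitive firing. Voltage-gated (Kv) channels open on depolarization, calcium-activated channels follow the calcium signal, inward rectifiers and two-pore channels carry current near rest, and auxiliary subunits tune the pores. In the cerebellum, fast Kv3 channels of Purkinje and granule neurons allow brief spikes, Kv4 channels carry A-type current, two-pore channels hold the granule neuron at rest, and the inward rectifier Kir4.1 of Bergmann glia and astrocytes takes up released potassium. CIC is a DNA-binding repressor of octamers of the form TGAATGAA or TGAATGGA.

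Libraries held from 102653765 to 121285349 counts in genes. Cic itself was at 147, 146, 144 and 147 CPM (counts scaled to a library total of 1000000) in CicKO libraries 1 to 4, against 216, 257 and 223 CPM in Wildtype libraries 1 to 3 (log2 fold change -0.66, SE 0.0622, edgeR adjusted p = 0.00256). CicKO 3 and Wildtype 3 stood apart in choroid plexus transcripts: the 6 markers of that tissue summed to 8418 and 6090 CPM there, and to 39.4 to 121 CPM in the other CicKO libraries and 52.6 and 131 CPM in the other Wildtype libraries. Results below are therefore also given without both libraries where that ends a call. Reads that fell in no annotated gene, below called the no-feature share, made up 18.2% to 19.0% in the CicKO libraries, against 16.02%, 18.6% and 16.5% in Wildtype 1 to 3. With that share added to the model none of the member calls below passed, and only 0.343% of all genes did, against 2.08% with genotype alone. Defining cerebellar markers were present in all libraries, with Purkinje markers summing to 7084 to 10081 CPM in CicKO and 7140 to 8680 CPM in Wildtype (all 6 with positive log2 fold changes, 0 called), and granule neuron markers to 3849 to 4757 CPM and 4144 to 4563 CPM. In whole tissue, fewer cells of a type and less RNA per cell cannot be told apart.

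The promoters of the potassium channel genes were searched for the octamers TGAATGAA, TGAATGGA, TCAATGAA and TCAATGGA on both strands. The RefSeq promoter table (GRCm38.p6, the assembly called mm10), with 250 bases before and 50 after each start, held 66 of the 91 members, Kcnb2 not among them. Of these, 4 had an octamer in a listed promoter (6.06%), against 4.45% of the 27025 genes in the table, or 4.44% of the members' 90 promoters against 3.84% of all 32851. Of these genes 3 are shown because CIC binds such octamers, in windows of 30 bases with the match in capitals, read 5′ to 3′ on the gene's strand. In each the octamer lay on the opposite strand.
Kcnj10, chr1:172341190-172341219, plus strand: cgccgggccccTCCATTCAcacaaagtttg
Kcnip1, chr11:33843667-33843696, minus strand: ccctggcgctgTTCATTCAtgattggtact
Kcnip4, chr5:49285720-49285749, minus strand: ttacatgctgaTTCATTGAtgagctggcat
The match began 9 bases before the start in Kcnj10, 79 before it in Kcnip4, and at base 2 of the transcript in Kcnip1. Kcnip1 and Kcnip4 have further listed promoters without a match. None of these 3 genes was called between the groups (log2 fold changes 0.18, 0.16 and -0.11 for Kcnj10, Kcnip1 and Kcnip4, edgeR adjusted p = 0.238, 0.763 and 0.67). A match is a run of letters and not a site known to be bound in these cells. Kcnk1, Kcnk2 and Kcnk13 were lower in CicKO, and the promoter of Kcnk2 is not shown. Those of Kcnk1 and Kcnk13 are given whole and in lower case because none of the 4 octamers occurs in them.
Kcnk1, chr8:125994852-125995151, plus strand: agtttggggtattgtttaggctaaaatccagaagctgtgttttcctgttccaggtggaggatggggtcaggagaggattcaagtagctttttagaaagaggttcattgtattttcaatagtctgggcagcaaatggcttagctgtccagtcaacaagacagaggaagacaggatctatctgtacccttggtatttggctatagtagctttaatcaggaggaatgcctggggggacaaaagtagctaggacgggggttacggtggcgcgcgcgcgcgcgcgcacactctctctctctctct
Kcnk13, chr12:99964249-99964548, plus strand: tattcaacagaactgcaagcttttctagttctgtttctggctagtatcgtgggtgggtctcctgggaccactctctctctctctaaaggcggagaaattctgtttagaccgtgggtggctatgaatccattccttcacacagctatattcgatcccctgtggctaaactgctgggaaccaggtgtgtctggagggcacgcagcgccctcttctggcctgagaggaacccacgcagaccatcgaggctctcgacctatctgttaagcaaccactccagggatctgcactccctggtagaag

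Among the 79 tested potassium channel genes 1 was higher in CicKO and 3 were lower. The higher gene was Kcnb2, a delayed rectifier pore subunit, and the lower ones were Kcnk1, Kcnk2 and Kcnk13, all two-pore channels. Across the 16905 genes tested 1.25% were called higher and 0.828% lower by edgeR's quasi-likelihood test with Benjamini-Hochberg adjustment. The members' shares were 1.27% higher, near that background, and 3.8% lower. The median log2 fold change of the tested members was -0.0054, against -0.0044 over all genes tested, with 39 members above 0 and 40 below. The median size of the change, whatever its sign, was 0.182 for the members and 0.105 for all genes tested. Log2 fold changes within 0.25 of 0 were found for 52 members (65.8%) and for 77.8% of all genes tested. The groups did not overlap for 14 members (17.7%), against 15.4% of all genes tested, with 7 members above Wildtype (7.06% of all genes) and 7 below (8.36% of all genes). Some other settings called more genes, which bears on members named below as passing there: 7.68% of all genes in DESeq2, 3.04% with the replicate number as a block, 5.03% without CicKO 3 and 3.36% without Wildtype 2. Other omissions called fewer of all genes: 86, 156 and 107 without CicKO 1, 2 or 4, against 352 in the main fit. Without Wildtype 1 or Wildtype 3, 102 genes passed each time. This bears on calls named below as ended there. Members had a median level of 7.54 CPM, below the 20.3 CPM of all genes tested.

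**Figure D1:**
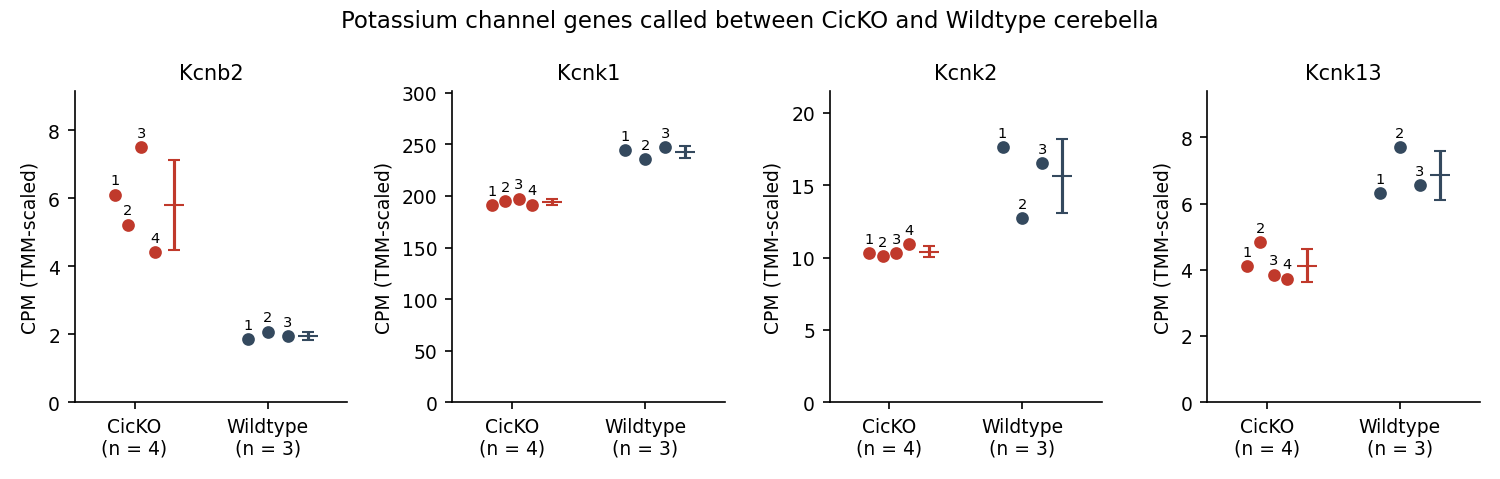
Level in CPM (TMM-scaled) of the 4 called genes in each CicKO library (red, left) and each Wildtype library (dark, right); digits are replicate numbers, and the bar to the right of the points is the mean with its SD. Kcnb2 lay at 4.42 to 7.51 CPM in CicKO, above all Wildtype libraries, and the 3 two-pore genes lay below all Wildtype libraries in every CicKO library.

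Kcnb2, which encodes the Kv2.2 pore subunit, had the largest fold change among the tested members. It was at 6.10, 5.22, 7.51 and 4.42 CPM in CicKO libraries 1 to 4, against 1.85, 2.07 and 1.94 CPM in Wildtype libraries 1 to 3. Every CicKO library lay above every Wildtype library, and the Wildtype libraries lay close together. The means were 5.81 ± 1.32 CPM in CicKO and 1.95 ± 0.112 CPM in Wildtype (SD, n = 4 and 3), a 2.97-fold difference (log2 fold change 1.57, SE 0.186, adjusted p = 0.00653). The gene covers 436497 bases of chromosome 1, at 15287254 to 15723750 on mm10, and its exons overlap no other annotated gene. Its nearest right-hand neighbour among the protein-coding genes of the files, Terf1, did not pass (log2 fold change 0.10, SE 0.0708, adjusted p = 0.535). The 6 midbrain and brainstem markers summed to 38.5, 39.7, 70.1 and 38.4 CPM in CicKO, against 32.3, 15.7 and 34.7 CPM in Wildtype, without overlap. Th, the gene of the dopamine synthesis enzyme tyrosine hydroxylase, made up most of the sum, at 31.5, 31.7, 63.3 and 32.2 CPM in CicKO and 27.4, 10.8 and 29.4 CPM in Wildtype. Th alone carried the high sum of CicKO 3, where Kcnb2 was also highest, while Ddc was highest in CicKO 2, at 7.66 CPM against 6.59 CPM in CicKO 3. Of these markers 3 were tested, all with positive log2 fold changes and 0 called, and the part of that tissue in the result was not tested.

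Per kb of exon, Kcnb2 was a minor potassium channel transcript, at 0.383 CPM per kb in CicKO and 0.129 CPM per kb in Wildtype, and by its mean over all libraries it ranked 62 of the 91 members. The call of Kcnb2 passed under every omission of a single library (adjusted p up to 0.0457, without Wildtype 3) and without both CicKO 3 and Wildtype 3 (0.0106), and was lost with the no-feature share in the model (adjusted p = 0.135, log2 fold change 1.45).

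The two-pore subfamily held all 3 members called lower. These channels are dimers of subunits with a pair of pore loops each and carry leak current at rest. Of 14 members 10 were tested, 3 were lower, 0 were higher and 4 had positive log2 fold changes. Their summed level per kb of exon was 135, 133, 128 and 133 CPM per kb in CicKO, against 159, 151 and 154 CPM per kb in Wildtype, and Kcnk1 made up most of it. The subfamily's median log2 fold change was -0.01, since the other 7 tested genes lay on both sides of 0.

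Kcnk1, the gene of the weak inward rectifier TWIK-1, was the most abundant two-pore transcript per kb of exon, at 86.7 CPM per kb in CicKO and 109 CPM per kb in Wildtype. It was at 191, 195, 197 and 192 CPM in CicKO libraries 1 to 4, against 244, 236 and 247 CPM in Wildtype libraries 1 to 3. The libraries of each group lay within a few percent of each other and the groups were well apart. The means of 194 ± 2.88 and 243 ± 6.01 CPM gave -0.32 as log2 fold change (SE 0.041, adjusted p = 0.00826). The gene lies on chromosome 8 at 125995170 to 126030685, and 179 of its 2235 exonic bases overlap an annotated gene that the files do not list. Its right-hand neighbour Slc35f3, 267873 bases away, was also lower (log2 fold change -0.24, SE 0.0494, adjusted p = 0.0483). The call of Kcnk1 was lost without CicKO 1 (adjusted p = 0.0502) or Wildtype 1 (0.053), with nearly the same fold change, and with the no-feature share in the model (0.117).

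Kcnk13 and Kcnk2 were lower at much lower levels. Kcnk13 encodes THIK-1, a leak channel known as the main potassium channel of resting microglia, and was at 4.11, 4.83, 3.85 and 3.73 CPM in CicKO against 6.31, 7.71 and 6.56 CPM in Wildtype (log2 fold change -0.73, SE 0.126, adjusted p = 0.0277). No libraries overlapped between the groups. Kcnk2, the gene of the mechanically and lipid-gated TREK-1, was at 10.3, 10.1, 10.3 and 10.9 CPM in CicKO against 17.6, 12.7 and 16.5 CPM in Wildtype (log2 fold change -0.59, SE 0.11, adjusted p = 0.0372). Wildtype 2 lay nearest to the CicKO libraries, which hardly differed among themselves. Kcnk13 lies on chromosome 12 at 99964499 to 100062682, and Kcnk2 on chromosome 1 at 189207930 to 189402273, where 604 of its 4943 exonic bases overlap an annotated gene not listed in the files.

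Both calls were lost in several fits with libraries omitted. The single omissions named here also called fewer of all genes, as given above. Under those that ended its call, the log2 fold change of Kcnk13 ran from -0.69 to -0.78. That of Kcnk2 ran from -0.49 to -0.61 under those that ended its call. Without CicKO 3 and Wildtype 3 neither passed (adjusted p = 0.0596 for Kcnk13 and 0.109 for Kcnk2), and single omissions of CicKO 1, CicKO 4, Wildtype 1 or Wildtype 3 also ended the call of Kcnk13 (up to 0.0981, without Wildtype 3). For Kcnk2 these 4 omissions and that of CicKO 2 did so (up to 0.158, without Wildtype 1 or Wildtype 3), as did limma-voom (0.0523), and with the no-feature share in the model its log2 fold change shrank to -0.31 (0.398), where Kcnk13 stood at -0.85 (0.135).

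Glial and microglial markers were set beside these genes, since TWIK-1 and TREK-1 are known from astrocytes as well as neurons. The 6 Bergmann glia and astrocyte markers summed to 2902, 2956, 2704 and 2877 CPM in CicKO, against 3358, 3422 and 3475 CPM in Wildtype, with negative log2 fold changes for all 6 (median -0.32) and 2 called lower, Gdf10 and Aqp4. The groups did not overlap in this sum, as they did not for the 3 two-pore genes. Among these markers Slc1a2 alone overlapped between the groups (log2 fold change -0.07). The glial channel genes Kcnj10 and Kcnj16 went the other way, at 0.18 and 0.15, and were not called. The part of Bergmann glia and astrocytes in the two-pore results was not tested. The 6 microglia markers summed to 89.1 to 127 CPM in CicKO and 108 to 114 CPM in Wildtype, with overlap and 0 called. For Kcnk13 the groups did not overlap, and the part of microglia in its result was not tested. The 6 oligodendrocyte markers summed to 3383 to 5453 CPM in CicKO and 4553 to 5798 CPM in Wildtype, with overlap. All 6 had negative log2 fold changes (median -0.31), Cldn11 was called lower, and the part of these cells in the two-pore results was not tested either.

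The remaining tested two-pore genes did not pass. Kcnk3 and Kcnk9 encode TASK-1 and TASK-3, the acid-sensitive leak channels of cerebellar granule neurons. Kcnk3 averaged 105 ± 10.9 CPM in CicKO and 102 ± 12.9 CPM in Wildtype (log2 fold change 0.04, SE 0.104). Kcnk9 was at 15.6, 13.2, 15.7 and 13.3 CPM in CicKO, against 7.03, 17.9 and 9.14 CPM in Wildtype (log2 fold change 0.35, SE 0.297, adjusted p = 0.615). Wildtype 2 was the highest library of all and Wildtype 1 and 3 the lowest, so the call turned on it: without Wildtype 2 Kcnk9 was higher in CicKO (log2 fold change 0.84, adjusted p = 0.0305). With the no-feature share in the model the direction of Kcnk9 turned (log2 fold change -0.27, adjusted p = 0.709). Kcnk4, the gene of TRAAK, was at 2.94 to 3.76 CPM in CicKO and 2.52 to 2.59 CPM in Wildtype without overlap (0.40, SE 0.126, adjusted p = 0.174). Of its 4465 exonic bases, 587 overlap another annotated gene on the same strand. Kcnk5, Kcnk6, Kcnk10 and Kcnk12 had log2 fold changes of -0.59, -0.01, 0.07 and -0.02, and for Kcnk5 the value rested on Wildtype 1, at 2.97 CPM against 1.02 to 1.38 CPM in CicKO and 1.07 and 1.14 CPM in Wildtype 3 and 2.

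**Figure D2:**
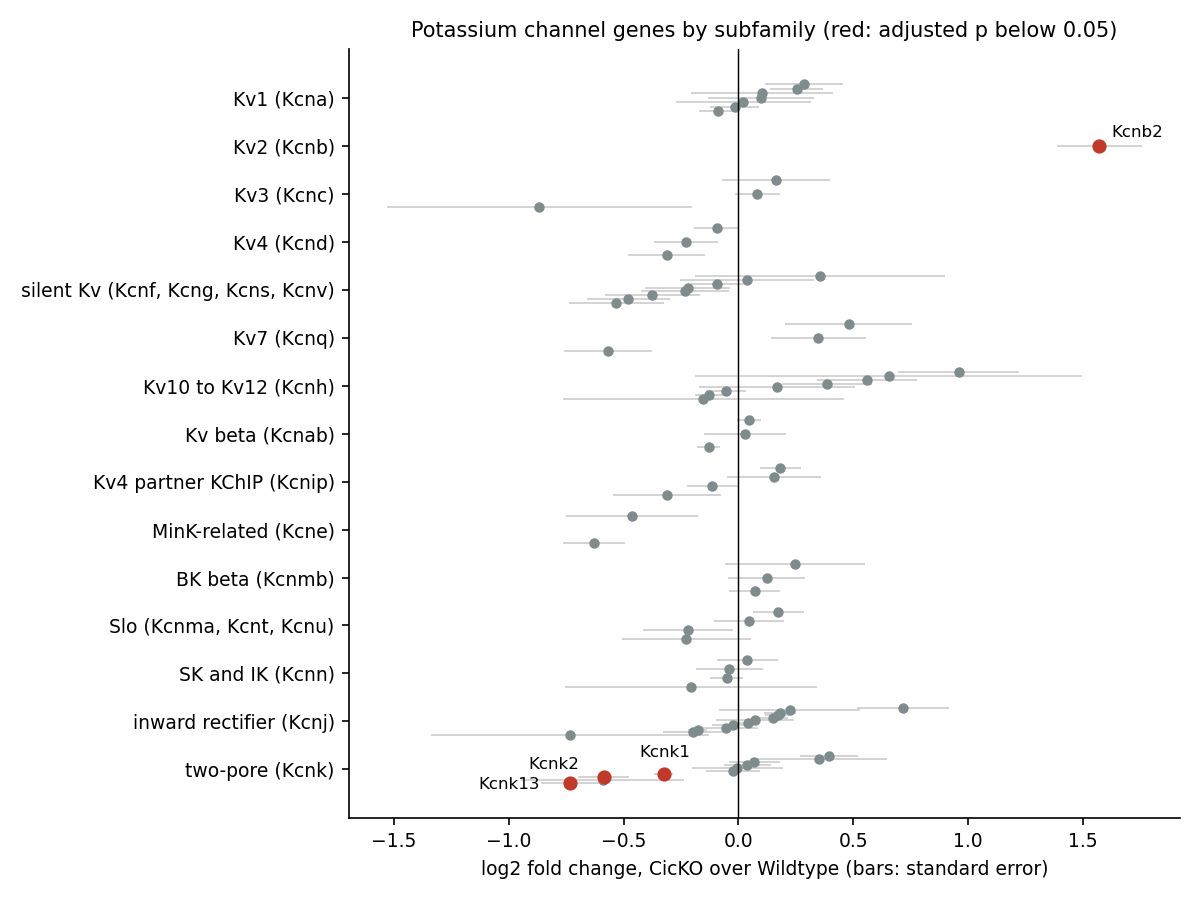
Log2 fold change of CicKO over Wildtype for 75 of the 79 tested members, 1 point per gene with its standard error, by subfamily from Kv1 at the top to two-pore channels at the bottom; red points passed an adjusted p below 0.05. Kcnb2 at 1.57 stands alone on the right, and the 3 red two-pore genes lie between -0.32 and -0.73.

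Inward rectifiers pass potassium into the cell more readily than out and hold it near rest. Of 14 members 12 were tested and 0 were called, with 7 positive and 5 negative log2 fold changes. At an unadjusted p below 0.05, 4 had higher values in CicKO and 1 lower, in a table where 16.2% of all genes passed that limit. Their summed level was 195, 195, 179 and 189 CPM per kb in CicKO and 182, 187 and 184 CPM per kb in Wildtype, with overlap.

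The glial pair had positive log2 fold changes. Kcnj10, which encodes Kir4.1, the main potassium channel of astrocytes and Bergmann glia, was at 331, 338, 292 and 291 CPM in CicKO, against 268, 281 and 279 CPM in Wildtype. All CicKO libraries lay above all Wildtype libraries, but the difference did not pass (log2 fold change 0.18, SE 0.068, adjusted p = 0.238). Kcnj16, whose product Kir5.1 joins Kir4.1, was at 48.1, 49.5, 41.6 and 48.9 CPM in CicKO against 42.4, 41.8 and 42.8 CPM in Wildtype (0.15, SE 0.0663, adjusted p = 0.307). CicKO 3 alone lay below the Wildtype libraries, and without it Kcnj16 passed as higher (log2 fold change 0.21, adjusted p = 0.0441).

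None of the other inward rectifiers passed. Kcnj12, the gene of Kir2.2, was at 101, 103, 100.2 and 99.8 CPM in CicKO and 119, 111 and 113 CPM in Wildtype (log2 fold change -0.18, SE 0.0404, adjusted p = 0.069), so it stayed just outside the threshold with no overlap. DESeq2 called it lower (adjusted p = 0.00541). Kcnj11, the Kir6.2 pore of ATP-sensitive channels, averaged 55.6 ± 3.05 CPM in CicKO and 49.4 ± 1.05 CPM in Wildtype (0.17, SE 0.0547, adjusted p = 0.172), and its regulatory partner Abcc8 differed by 0.24 (SE 0.13, adjusted p = 0.426). Kcnj4, the gene of Kir2.3, was scarce, at 0.599 to 0.756 CPM in CicKO and 0.375 to 0.476 CPM in Wildtype (0.72, SE 0.199, adjusted p = 0.124). The G-protein-gated genes Kcnj3, Kcnj6 and Kcnj9 had log2 fold changes of -0.02, 0.07 and 0.04, with Kcnj6 at 11.5 ± 0.958 CPM in CicKO and 10.9 ± 3.07 CPM in Wildtype. Kcnj8, the Kir6.1 pore of pericytes and vascular muscle, had -0.20 (SE 0.131), and Kcnj5, at 0.0666 to 0.491 CPM over all libraries, had -0.73 (SE 0.606). Kcnj2, the Kir2.1 gene, and Kcnj14 had -0.05 and 0.22.

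**Figure D3:**
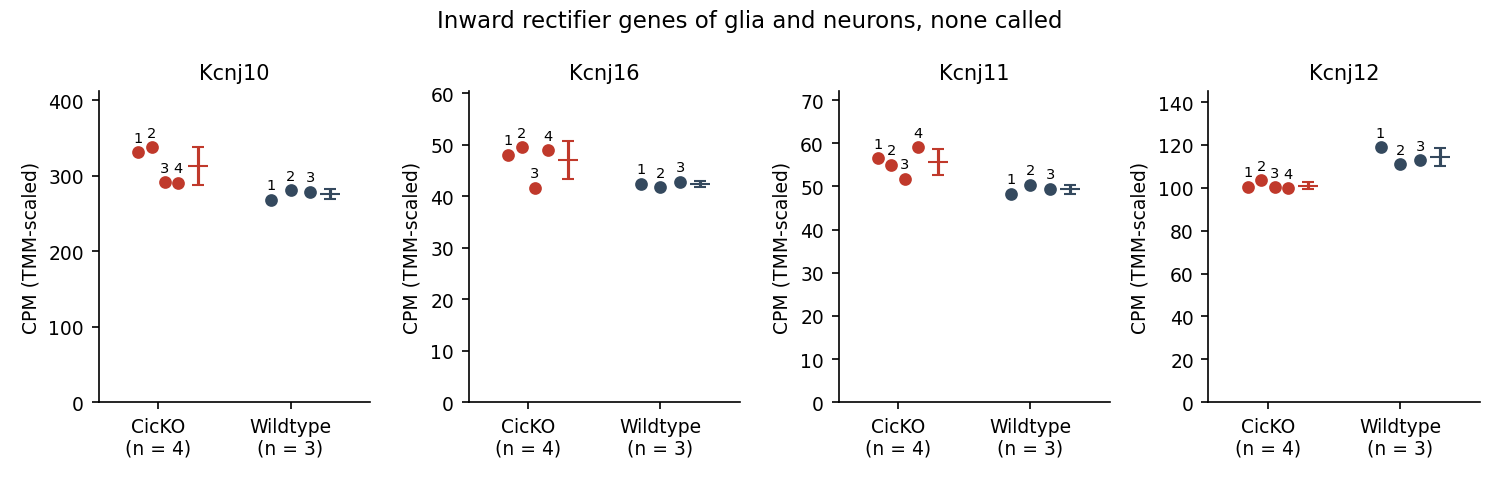
Level in CPM of 4 inward rectifier genes in each CicKO library (red, left) and each Wildtype library (dark, right), with the mean and SD beside the points and replicate numbers above them. Kcnj10 and Kcnj11 lay higher and Kcnj12 lower in all CicKO libraries, none past the threshold, and for Kcnj16 CicKO 3 lay just below the Wildtype libraries and the other 3 above them.

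The fast voltage-gated channels of the Kv3 subfamily were the most abundant group per kb of exon, and 0 of 4 were called. Kcnc1, the Kv3.1 gene of granule neurons, averaged 703 ± 54.8 and 663 ± 81.8 CPM (0.08, SE 0.0967), and Kcnc4 had 0.16 (SE 0.234). Kcnc2, the gene of Kv3.2, was at 1.33, 4.95, 8.07 and 1.48 CPM in CicKO, against 7.16, 5.34 and 9.16 CPM in Wildtype (-0.87, SE 0.664, adjusted p = 0.576). CicKO 1 and 4 were low and CicKO 3 lay within the Wildtype range, so the spread within CicKO exceeded the difference between the groups.

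Kv4 channels carry the A-type current that delays firing, and all 3 members had negative log2 fold changes with 0 called. Kcnd2, the Kv4.2 gene of granule neurons, was at 256, 247, 169 and 263 CPM in CicKO, against 271, 343 and 257 CPM in Wildtype (log2 fold change -0.31, SE 0.167, adjusted p = 0.416). CicKO 3 stood well below its group and Wildtype 2 well above. Kcnd3, the gene of Kv4.3 and mutated in a human spinocerebellar ataxia, averaged 166 ± 28.5 CPM in CicKO and 194 ± 25.8 CPM in Wildtype (-0.23, SE 0.14, adjusted p = 0.479), and its exons share 165 bases with the antisense gene Kcnd3os. Kcnd1 had -0.09 (SE 0.099). The summed Kv4 level was 67.6, 64.4, 55.9 and 68.5 CPM per kb in CicKO, below all 3 Wildtype sums of 74.9, 85.5 and 73.7 CPM per kb. Kcnd2 made up most of the sum, and each of the 3 genes taken alone overlapped between the groups.

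The cytosolic KChIP partners of Kv4 were not called either. Kcnip4 averaged 139 ± 20.004 CPM in CicKO and 149.8 ± 8.88 CPM in Wildtype (log2 fold change -0.11, SE 0.111). Kcnip3, also known as the calcium-dependent repressor DREAM, was at 142, 137, 112 and 146 CPM in CicKO against 119, 123 and 113 CPM in Wildtype (0.18, SE 0.0879, adjusted p = 0.352). CicKO 3 was again the lowest, and without it Kcnip3 passed as higher (adjusted p = 0.0238). Kcnip1 had 0.16 (SE 0.205) and the scarce Kcnip2 -0.31 (SE 0.235).

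The Kv1 subfamily, low-threshold channels of axons and terminals, had 7 of 8 members tested and 0 called, with log2 fold changes from -0.09 to 0.28. Kcna1, mutated in human episodic ataxia, averaged 413 ± 53.5 CPM in CicKO and 417 ± 26.6 CPM in Wildtype (-0.02, SE 0.105), and its usual partner Kcna2 493 ± 47.2 and 525 ± 18.8 CPM (-0.09, SE 0.0798). Kcna6 was at 162, 152, 117 and 159 CPM in CicKO and 118, 136 and 117 CPM in Wildtype (0.25, SE 0.116, adjusted p = 0.33). It passed as higher without CicKO 3 (adjusted p = 0.0212), the library that overlapped Wildtype. Of the 5945 exonic bases of Kcna6, 2355 overlap another annotated gene. The low-level Kv1 genes Kcna3, Kcna4, Kcna5 and Kcna10 had 0.10, 0.28, 0.02 and 0.10. The cytosolic beta subunits Kcnab1, Kcnab2 and Kcnab3 had 0.03, -0.13 and 0.05, of which Kcnab2 had the smallest p (SE 0.0504, adjusted p = 0.257).

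**Figure D4:**
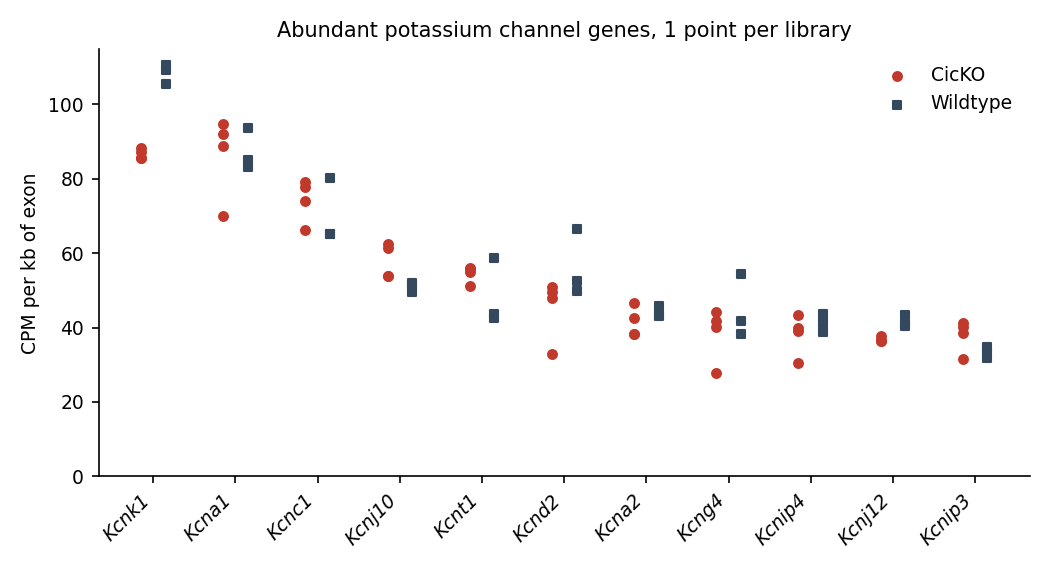
Level in CPM per kb of exon of 11 abundant members, in descending order of the mean over 7 libraries, 1 point per CicKO library (red circles) and per Wildtype library (dark squares). Adjacent genes overlap in range except that Kcnc1 lies above Kcnj10, and the CicKO and Wildtype points separate for Kcnk1, Kcnj10 and Kcnj12.

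The 11 abundant members plotted, from Kcnk1, Kcna1 and Kcnc1 down to Kcnip3, made up 55.4% of the sum over all 91. Among them, the range over the 7 libraries overlapped with that of the next gene plotted in all cases but 1, since Kcnc1, at 65.1 to 80.1 CPM per kb, lay above Kcnj10, at 49.6 to 62.5 CPM per kb. The sum over all members was 1163, 1114, 974 and 1144 CPM per kb in CicKO, against 1086, 1174 and 1054 CPM per kb in Wildtype, with overlap. Exon lengths were taken over all annotated transcripts of a gene, which understates genes that use short ones.

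Kv7, Kv10 to Kv12 and the electrically silent Kv subunits held mostly low-level genes with uneven differences and 0 calls among 5, 8 and 8 tested. Among the exceptions were Kcng4, Kcnh1 and Kcnh2, with means of 157, 74.3 and 44.8 CPM over all libraries. Kcnq5, an M-current pore, was at 2.05, 2.15, 2.53 and 1.88 CPM in CicKO, against 2.61, 4.18 and 2.79 CPM in Wildtype (log2 fold change -0.57, SE 0.192, adjusted p = 0.196). Wildtype 2 was highest and the groups did not overlap. Kcnq3, a main M-current gene, had 0.35 (SE 0.207), and Kcnq1, a cardiac and epithelial channel, had 0.48 (SE 0.275). Among the Kcnh genes, Kcnh4 was at 1.24, 1.28, 1.55 and 1.54 CPM in CicKO and 0.669, 0.476 and 1.02 CPM in Wildtype (0.96, SE 0.262, adjusted p = 0.118, or 0.0146 in DESeq2), and Kcnh5 at 0.480 to 0.640 CPM and 0.333 to 0.430 CPM (0.56, SE 0.218, adjusted p = 0.256). In both, CicKO lay above Wildtype without overlap. Kcnh1, the ether-à-go-go channel with the highest level per kb in its subfamily, had -0.13 (SE 0.0616). Kcnh2, the ERG channel of cardiac repolarization, had -0.05, and its relatives Kcnh6 and Kcnh7 had 0.38 and 0.17. The scarcest tested Kcnh gene, Kcnh8, had -0.15 (SE 0.613).

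Silent subunits alter Kv2 channels and form no pore alone, so they are given beside Kcnb2. Of 10 members 8 were tested, with 6 negative log2 fold changes. Kcng4, the most abundant, averaged 146 ± 28.2 CPM in CicKO and 171 ± 32.4 CPM in Wildtype (-0.22, SE 0.184, adjusted p = 0.609). Kcns1 was at 1.65 to 2.56 CPM in CicKO and 2.15 to 3.36 CPM in Wildtype (-0.53, SE 0.208, adjusted p = 0.257), and Kcnf1 at 0.941 to 1.47 CPM and 1.56 to 1.75 CPM (-0.48, SE 0.179, adjusted p = 0.24). Only Kcnf1 of these had groups that did not overlap. Kcng2, Kcns2, Kcnv1 and Kcnv2 had -0.37, -0.09, 0.36 and 0.04.

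The class of calcium- and sodium-activated channels was taken by symbol as all Kcnma, Kcnt, Kcnu and Kcnn genes, whatever gates each one. It showed the smallest differences of the 5 classes so made. The median size was 0.112, with 8 of 8 tested log2 fold changes within 0.25 of 0 and 0 called. Kcnma1, the BK channel that repolarizes Purkinje neurons, was at 128, 94.0, 90.9 and 101 CPM in CicKO and 87.0, 121 and 93.0 CPM in Wildtype (log2 fold change 0.05, SE 0.153), and its neuronal beta subunit Kcnmb4 averaged 5.66 ± 0.454 and 5.39 ± 0.576 CPM (0.07, SE 0.113). Exons of Kcnmb4 share 1048 bases with the antisense genes Kcnmb4os1 and Kcnmb4os2, so its separate level is uncertain. The other beta subunits tested, Kcnmb1 and Kcnmb2, had 0.25 and 0.12. Kcnn2, the SK2 channel of Purkinje pacemaking, averaged 27.9 ± 1.92 CPM in CicKO and 28.9 ± 2.03 CPM in Wildtype (-0.05, SE 0.0727), and the small-conductance genes Kcnn1 and Kcnn3 had 0.04 and -0.04. Kcnn4, the intermediate-conductance channel of blood cells, had -0.20 (SE 0.548) at 0.0561 to 0.294 CPM over all libraries. Kcnt1, the sodium-activated channel Slack, was at 530, 523, 487 and 531 CPM in CicKO, against 416, 557 and 405 CPM in Wildtype (0.17, SE 0.11, adjusted p = 0.487). Wildtype 2 was the highest of all libraries, and without it Kcnt1 passed as higher in CicKO (log2 fold change 0.34, adjusted p = 0.0375). The no-feature share in the model turned its direction (-0.0613, adjusted p = 0.925). Its relative Kcnt2 and the sperm channel Kcnu1 had -0.23 and -0.22.

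Of the MinK-related auxiliaries only Kcne1l and Kcne4 were tested. Kcne1l, an X-linked subunit also called Kcne5 that dampens Kv7 current, was at 6.01, 7.48, 7.98 and 6.50 CPM in CicKO, against 10.8, 9.17 and 12.5 CPM in Wildtype. Every CicKO library lay below every Wildtype library. The log2 fold change of -0.63 (SE 0.137) missed the threshold (adjusted p = 0.0618) and passed it with the replicate block (0.0424), in DESeq2 (0.000625), without CicKO 3 (0.0253) and without Wildtype 2 (0.0395). Kcne4 was at 0.970 to 1.29 CPM in CicKO and 0.990 to 2.43 CPM in Wildtype, with overlap (-0.46, SE 0.287, adjusted p = 0.477).

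**Figure D5:**
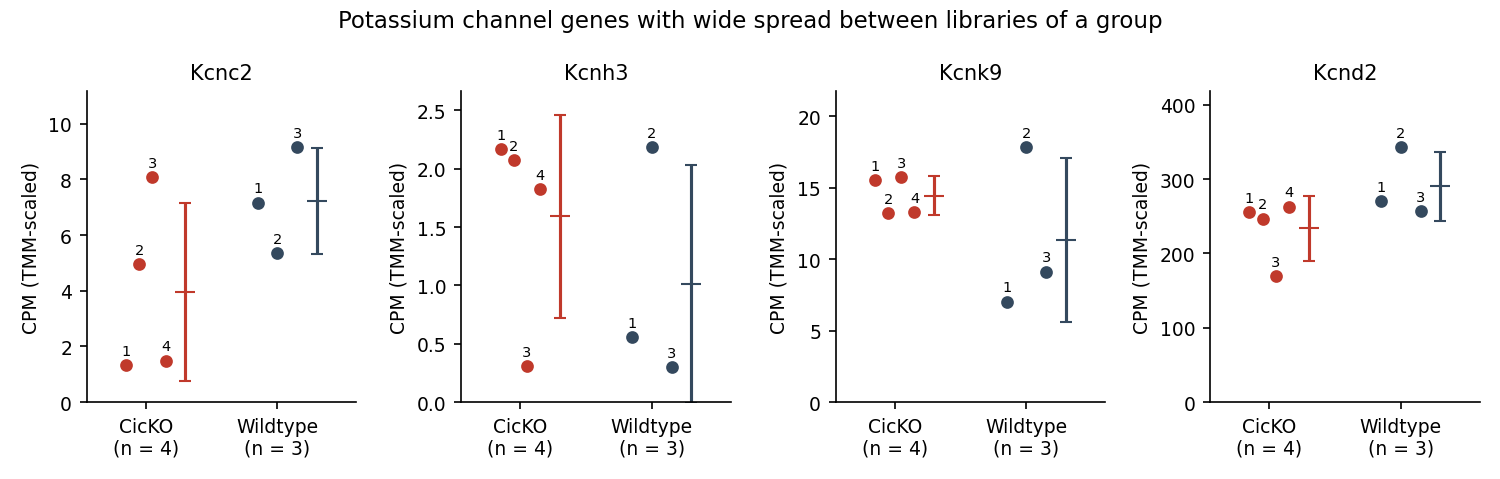
Level in CPM of 4 members with wide spread within a group, in each CicKO library (red, left) and each Wildtype library (dark, right), with mean and SD; digits are replicate numbers. Kcnc2 is low in CicKO 1 and 4, Kcnh3 is low in CicKO 3 and in Wildtype 1 and 3, Kcnk9 is high in Wildtype 2, and Kcnd2 is low in CicKO 3.

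Some members varied more within a group than between the groups. Kcnh3, a Kv12 channel, had the widest range of the tested members with a mean of at least 1 CPM, 7.34-fold between the highest and lowest library. It was at 2.17, 2.08, 0.308 and 1.83 CPM in CicKO, against 0.555, 2.19 and 0.298 CPM in Wildtype (log2 fold change 0.66, SE 0.843, adjusted p = 0.755). The low libraries were CicKO 3, Wildtype 1 and Wildtype 3, and the libraries rich in choroid plexus transcripts were the 2 lowest. Kcnc2 followed with a 6.89-fold range.

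The 12 members that were not tested had at most 36 counts in any library. They were Kcna7, Kcne1, Kcne3, Kcng1, Kcng3, Kcnj1, Kcnj15, Kcnk7, Kcnk15, Kcnk16, Kcnk18 and Kcnmb3. Kcnk16, a channel known from pancreas, had 0 counts in all libraries, which allows up to 0.0245 to 0.0295 CPM at 3 counts. Kcnk18 reached its highest levels in CicKO 3 and Wildtype 3 (0.317 and 0.149 CPM), against 0.0295 to 0.0475 CPM in the other CicKO libraries and 0 and 0.0561 CPM in Wildtype 1 and 2.

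Partners of potassium channels outside the Kcn symbols were taken from a list of 24 genes, of which 23 were tested, 1 was called higher and 0 lower. Over all genes tested 1.25% were called higher and 0.828% lower, and 1 call among 23 genes is too few to set against those shares. Cntnap2, the gene of CASPR2, which clusters Kv1 channels beside nodes of Ranvier, was at 75.6, 74.9, 82.3 and 72.6 CPM in CicKO, against 58.6, 62.0 and 64.1 CPM in Wildtype. All CicKO libraries lay above all Wildtype libraries (log2 fold change 0.31, SE 0.0559, adjusted p = 0.033), but each single omission other than that of CicKO 3 ended the call (up to 0.144, without Wildtype 1), as did the no-feature share in the model (0.327). Hcn2, a pacemaker channel gene, averaged 98.9 ± 6.45 CPM in CicKO and 121 ± 6.03 CPM in Wildtype (-0.29, SE 0.061, adjusted p = 0.0559, or 0.0481 with the replicate block). The block was 1 of 6 among 16 alternatives in which Hcn2 passed as lower, with DESeq2 (adjusted p = 0.00181) and the omission of CicKO 3 (0.0298). Amigo2, a relative of the Kv2 partner Amigo1, averaged 20.9 ± 1.85 and 29.1 ± 4.53 CPM (-0.48, SE 0.112, adjusted p = 0.0767, or 0.0118 with the block), while Amigo1 itself had -0.04 (SE 0.0409). Amigo2 also passed as lower in DESeq2 (adjusted p = 0.00293), without CicKO 3 (0.049) and without Wildtype 2 (0.0233). The Kv4 partner Dpp10 was at 277, 260, 213 and 280.1 CPM in CicKO, against 210.4, 216 and 211 CPM in Wildtype (0.28, SE 0.0909, adjusted p = 0.184). CicKO 3 alone lay among the Wildtype libraries, and Dpp10 passed as higher without it (0.36, adjusted p = 0.00667), without both CicKO 3 and Wildtype 3 (0.0243) and in DESeq2 (0.0499). Its relative Dpp6 had -0.02 (SE 0.11).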

How the data were processed

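RNA sequencing of mouse cerebellum gave 7 libraries. The labels' protocols name amplification with poly(A) and random priming (NuGEN Ovation) before TruSeq DNA libraries on a HiSeq. The deposited files, 1 per library, hold unnormalized read counts for each gene symbol. The submitters' processing notes name mm10 and, as tools, HTSeq, DESeq2 and STAR 2.5.3a; the sources used here do not give the annotation, strand setting or filters, so genes with overlapping exons cannot be told apart with certainty. The 5 summary rows stayed out of tests; 1.27% to 1.37% were ambiguous, 12.0% to 13.7% had several alignments and 16.02% to 19.0% lay in no feature.

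Counts were filtered with filterByExpr, scaled by TMM and tested with edgeR 4.0.16 (robust quasi-likelihood F test, R 4.3.3), with genotype as the only term, Benjamini-Hochberg adjustment over all 16905 genes and a threshold of 0.05. Where a sentence names no tool, its adjusted p is edgeR's. Each SE is the log2 fold change over the root of its F. CPM are TMM-scaled, and CPM per kb divides by the exon length in GENCODE M21 on mm10. Alternatives were DESeq2 1.42.0, limma-voom (limma 3.58.1), other scaling and filters, a replicate block, a covariate, and omitted libraries. Scripts were tested on simulated data. The labels do not say that each library is a separate animal; p-values measure the spread between these samples. Within each group no library repeated another: the variance between pairs was 18.5 to 157 times that of counting alone. Floors cover counting error only, since amplified reads are not independent molecules.

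Replicate numbers 1 to 3 occur in both groups. After subtracting group means, libraries with equal numbers correlated over genes at 0.145, 0.288 and 0.713, each past 0.1. Differently numbered libraries passed that limit too (0.319 for CicKO 1 with Wildtype 2). The 0.713 was between CicKO 3 and Wildtype 3, the libraries rich in choroid plexus transcripts. Pairing by number is therefore uncertain. The main fit did not use the numbers, and an alternative fit took them as a block. Values with the block are given where they change a call.

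Members, lists and tests were chosen with earlier results of these data known. Named genes were all called members, 12 more with the smallest unadjusted p below 0.05, the member of highest CPM per kb in each subfamily with at least 3 tested, 16 with known cerebellar roles, and called partners with up to 4 others. Genes named beyond these, among them Kcnc2, Kcnh3, Kcna6 and Kcnip3, were chosen after their values were seen. Some members and a promoter stretch are not reported here.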

Additional observations from a re-analysis of the deposited data

Results flagged for a closer look

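Kcnd2 in CicKO was the only one of 37 named genes with a library far from the other 3. The gap between CicKO 3, at 169 CPM, and the nearest library, at 247 CPM, was 0.831 of the group's range, just above Dixon's 95% limit for 4 samples. Chance gives about 1 such case in 20 groups. CicKO 3 also had 8418 CPM of choroid plexus markers, against 39.4 to 121 CPM in the other CicKO libraries, and the part of these in the value was not tested.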

How the results depend on the processing

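Counts of called members moved with the settings. Against 1 higher and 3 lower, DESeq2 called 2 and 5, the share of reads in no feature as a covariate 0 and 0, and omission of both CicKO 3 and Wildtype 3 called 1 and 1. Single omissions gave 1 to 4 higher (4 without CicKO 3, 3 without Wildtype 2) and 0 to 4 lower (0 without CicKO 1 or Wildtype 1). The replicate block called 1 and 4, adding Kcne1l, and among the partners added Hcn2 and Amigo2; it changed no other call of a named gene. Kcnb2 and the 3 two-pore genes kept their direction in all 16 alternatives. Signs turned for genes that were not called, of which Kcnk9 had the largest main value (0.35): with that covariate for Kcnt1 (-0.0613), Kcnc1 (-0.0689), Kcnma1 (-0.14), Kcnj6 (-0.27), Kcnk9 (-0.27) and Kcnab1 (-0.000284), with the block for Kcnab1 (-0.0764), and without both libraries numbered 3 for Kcna1 (0.0378). Over single omissions log2 fold changes ran from -0.00328 to 0.157 for Kcnmb4, -0.0633 to 0.0717 for Kcna1, -0.0854 to 0.00857 for Kcnn2, -0.075 to 0.201 for Kcnma1, -0.071 to 0.32 for Kcnj6 and -0.0478 to 0.176 for Kcnab1. Both other scalings moved all genes by a median of -0.00319 and 0.00402 on the log2 scale. At this depth members under about 1 CPM had standard errors of 0.168 to 0.613.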
